A study of Rattus norvegicus with 6 samples.

Results

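Small heat shock proteins are chaperones built around an alpha-crystallin domain. Without using ATP, they bind proteins that begin to unfold and keep them soluble until the HSP70 machinery can refold or discard them. Bag3 is the co-chaperone that ties them, above all Hspb8, to HSP70 and to autophagy. Heat shock factor 1 drives several of these genes under stress, through inverted GAA units known as heat shock elements. The testis is kept cooler than the body core, and male germ cells mount a heat response at lower temperatures than most cells do. The genes described here are Hspb1, Hspb2, Hspb3, Hspb6, Hspb7, Hspb8 and Cryab, which encode small heat shock proteins, and Bag3. They were found as the gene probes whose RefSeq accession in the array files maps to these rat symbols. All 8 genes had 1 probe each, out of 15168 genes with a named probe, and 7 of the 8 were above background.

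RNA came from primary Leydig cells, the testosterone-making cells between the seminiferous tubules, of Sprague-Dawley rats whose age the labels do not give. All cells were kept at 34 °C under 5% CO2 in F12/DMEM with 10% fetal bovine serum, penicillin and streptomycin. The exosome group, 3 samples, had received exosomes, vesicles shed by primary Sertoli cells of rat, for 24 h at 5 µg/ml, and the untreated group, also 3 samples, had received none. The replicates are numbered 1 to 3 in each group, and the labels do not say whether they came from separate animals or cultures, how pure the cells were, or whether the untreated cells got a carrier. p-values therefore measure only the spread between these samples, which may be technical. Each sample was hybridised to 1 single-colour array.

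The set was put together with the exosome comparison of these same arrays already known: the processed intensities, the above-background marks and the authors' log2 values of both groups. The differences of the 8 genes are therefore given as a description with no test, while the genes around them, from 7 other lists, are tested. The lists too were chosen with earlier results of these data known, so their p-values are not independent support. Values are log2 intensities minus the 75th percentile of the same array, so that 0 is that percentile and 1 unit is a doubling. Differences are exosome minus untreated with the standard error (SE) of a model fitted to all probes, n = 3 per group. Of 10979 genes tested, 43.8% passed the test (limma, Benjamini-Hochberg adjusted p below 0.05), 14.6% higher and 29.2% lower with exosomes. For 62.0% of genes all arrays of 1 group lay above all those of the other, and for 37.9% the exosome arrays were the lower ones. The median difference of all tested genes was −0.19 and moved with the scaling, to 0.01 under quantile normalization and 0.22 under median centring. The 3 untreated arrays shared 1 scan time, exosome 1 and 2 shared another and exosome 3 had its own, so scan and group cannot be told apart.

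The promoters are shown because 4 of the genes carry the same 8 letters there. The 250 bases before the RefSeq start site, on assembly GRCr8, were available for 6 of the 8 genes (Hspb1, Hspb3, Hspb6, Hspb7, Hspb8 and Bag3). Both arrangements of neighbouring inverted units of the heat shock element were searched, GAANNTTC and TTCNNGAA. Each reads the same on both strands, and the pair can share 3 letters. GAANNTTC occurred in the windows of Hspb1, Hspb6, Hspb8 and Bag3, as in 7.23% of 33469 rat promoters, and TTCNNGAA in that of Hspb6 alone among the 6, as in 7.48% of promoters. In all 4 genes the match was GAAGTTTC, an exact form noticed after the search, which stands on either strand in 1.22% of promoters. Lined up with 6 bases on each side and the match in capitals, the 4 sites read as follows.
Hspb1: actagaGAAGTTTCcagatg
Hspb6: attattGAAGTTTCtaaata
Hspb8: ccaggaGAAGTTTCtaggcg
Bag3: ggaccaGAAGTTTCtagccg
Between the last C and the start site lay 121 bases in Hspb1, 141 in Hspb6, 15 in Hspb8 and 124 in Bag3. A second GAANNTTC, GAACCTTC, ended 101 bases before the start of Hspb1, and the TTCTAGAA of Hspb6 ended 231 bases before its start. The windows of Hspb3 and Hspb7 held neither arrangement. A run of 3 neighbouring inverted units, which stands in 0.663% of promoters, was in none of the 6 windows. The matches of the members are thus pairs of units and not longer runs.

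The whole windows are given 5′ to 3′ on the strand of the gene, with both arrangements in capitals. That of Hspb1 is chr12:26432302-26432551 on the minus strand, and those of Hspb6, chr1:94934122-94934371, Hspb8, chr12:45837058-45837307, and Bag3, chr1:192533210-192533459, are on the plus strand.
Hspb1: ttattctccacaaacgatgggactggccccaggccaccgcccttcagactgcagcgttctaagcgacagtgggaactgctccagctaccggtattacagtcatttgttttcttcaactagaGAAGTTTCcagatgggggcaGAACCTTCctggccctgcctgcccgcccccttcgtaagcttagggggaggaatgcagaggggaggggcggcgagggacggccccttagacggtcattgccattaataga
Hspb6: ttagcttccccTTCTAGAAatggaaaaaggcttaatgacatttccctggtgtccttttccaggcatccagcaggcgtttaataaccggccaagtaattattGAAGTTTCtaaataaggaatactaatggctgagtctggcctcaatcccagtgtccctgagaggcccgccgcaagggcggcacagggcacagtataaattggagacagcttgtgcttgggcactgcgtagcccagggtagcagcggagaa
Hspb8: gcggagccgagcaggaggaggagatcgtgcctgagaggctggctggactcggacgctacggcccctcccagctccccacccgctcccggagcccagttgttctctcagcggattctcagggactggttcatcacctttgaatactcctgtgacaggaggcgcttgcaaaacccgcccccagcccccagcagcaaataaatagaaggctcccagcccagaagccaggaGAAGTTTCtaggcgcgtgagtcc
Bag3: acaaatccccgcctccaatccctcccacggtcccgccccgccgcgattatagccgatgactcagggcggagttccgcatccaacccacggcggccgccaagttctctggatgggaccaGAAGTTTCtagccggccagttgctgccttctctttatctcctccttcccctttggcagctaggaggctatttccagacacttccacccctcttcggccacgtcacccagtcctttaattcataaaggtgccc
A match of letters is a description and not evidence of binding.

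Exosome-treated cells held less Hspb1, Hspb6, Hspb8 and Hspb2 RNA on every array, while Cryab and Hspb7 overlapped between the groups and Bag3 was higher by a narrow margin. The 4 lower genes are 4 of the 7 members above background, and all 4 encode small heat shock proteins. From these counts nothing is read, beside the 29.2% of all tested genes that were lower and the 37.9% with all exosome arrays below, since the members were chosen on this comparison. The median difference of the 7 genes was −0.70, beside −0.19 over all tested genes. The plot of the members by array shows each value.

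**Figure D1:**
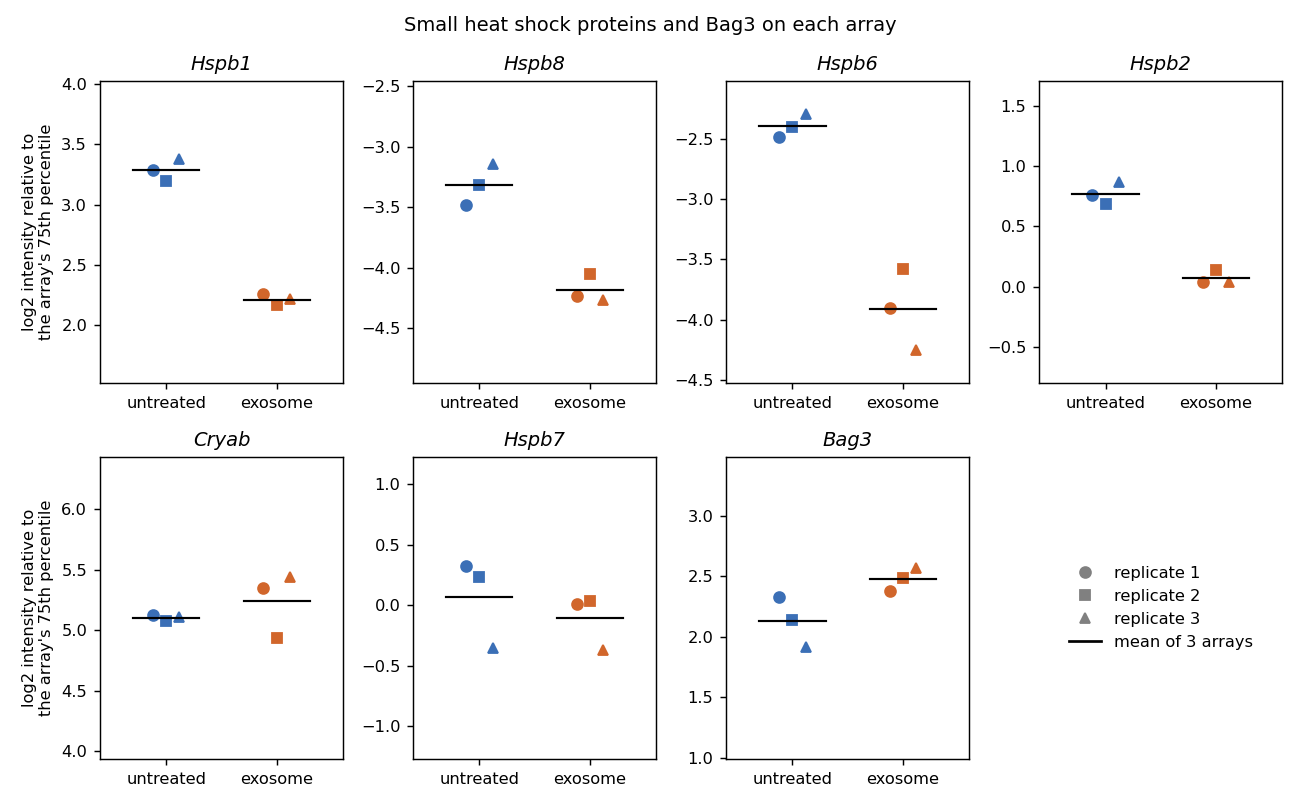
Log2 intensity relative to the 75th percentile of the array (vertical axis, each panel spanning 2.5 log2 units) of 7 genes in 3 untreated and 3 exosome arrays; symbols are replicates and lines are group means. In Hspb1, Hspb8, Hspb6 and Hspb2 the exosome arrays lie below all untreated ones, in Cryab and Hspb7 the groups overlap, and in Bag3 they are 0.05 apart.

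Hspb1 encodes HSP25, the rat form of HSP27, which binds unfolding proteins and shields actin filaments. Its processed intensity was 8507, 7134 and 7822 on untreated arrays 1 to 3 and 4805, 4762 and 3995 on exosome arrays 1 to 3. After scaling, the values were 3.29, 3.20 and 3.38 without exosomes and 2.26, 2.17 and 2.22 with them. The groups stood 0.94 apart at their nearest arrays, and replicates lay close together, with an SD of 0.09 and 0.05. The difference was −1.07 (SE 0.11), or 2.10-fold less with exosomes. It was the same on exosome arrays 1 and 2 (−1.07) as on exosome 3 (−1.07), which was scanned apart.

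Hspb6 encodes HSP20, which is abundant in contractile cells, is phosphorylated by protein kinase A and is linked to relaxation of smooth muscle. Its probe was dim, with intensities of 156, 147 and 153 without exosomes and 67.1, 88.7 and 45.3 with them. The lowest of these was still 3.91 times the dimmest probe that counted as well above background on its array. Scaled values were −2.49, −2.40 and −2.30 in untreated cells and −3.90, −3.58 and −4.25 in treated ones. All treated arrays were lower, and they spread more (SD 0.33) than the untreated ones (SD 0.09). The difference was −1.51 (SE 0.19), or 2.85-fold, and only 1.72% of tested genes had a lower one. It was −1.34 on exosome 1 and 2 and −1.85 on exosome 3. Contractile peritubular myoid cells, which surround the tubules, are also known to make Hspb6.

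Hspb8, HSP22, is the member that forms a stable complex with Bag3. It too was dim, at 78.0, 78.1 and 85.1 in untreated cells and 53.4, 64.0 and 44.7 in treated ones, or at least 3.86 times the dimmest probe well above background. Scaled values were −3.48, −3.32 and −3.15 against −4.23, −4.05 and −4.26, again without overlap. The difference was −0.87 (SE 0.14), or 1.82-fold. For both dim probes the size depended on the processing: quantile normalization gave −1.18 for Hspb6 and −0.49 for Hspb8, and the normexp background correction −0.86 and −0.41.

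Bag3 went the other way from its partner. Its probe is spotted 10 times on the array, and 9 spots per array were used. Their mean intensities were 4389, 3429 and 2835 without exosomes and 5231, 5946 and 5096 with them. The scaled values, 2.33, 2.14 and 1.91 against 2.38, 2.49 and 2.57, did not overlap, but the highest untreated and the lowest treated array were 0.05 apart. Spots of 1 array had an SD of 0.04 to 0.06, against an SD of 0.21 between untreated arrays and 0.09 between treated ones. The spread between arrays thus exceeded the spread of the spots. The difference was 0.35 (SE 0.14), or 1.28-fold, and it ranged from 0.24 without untreated 3 to 0.76 under median centring.

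Hspb2 and Cryab are neighbours in the RefSeq table of GRCr8. They are known as a head-to-head pair read in opposite directions from a shared region, and both are abundant in heart and skeletal muscle. Hspb2, which binds and activates a muscle protein kinase, had intensities of 1476, 1249 and 1375 without exosomes and 1032, 1166 and 881 with them. Its scaled values were 0.76, 0.68 and 0.87 against 0.04, 0.14 and 0.04, without overlap, and the difference was −0.70 (SE 0.11), or 1.62-fold. Cryab, alpha B-crystallin, which binds desmin and other filament proteins, gave scaled values of 5.12, 5.07 and 5.11 without exosomes. The treated arrays read 5.35, 4.93 and 5.44, on both sides of the untreated ones. The untreated arrays were nearly equal (SD 0.03) and the treated ones spread (SD 0.27), so that the difference of 0.14 (SE 0.16) was smaller than its error.

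The ratio of 2 probes on the same array does not depend on a scaling that shifts the whole array by 1 factor, such as the 75th percentile or the median, though quantile normalization and normexp can change it. Taken relative to the mean of the untreated arrays, the log2 ratio of Hspb2 over Cryab was −0.03, −0.06 and 0.09 without exosomes and −0.98, −0.47 and −1.07 with them. The difference between the groups was thus unequal for the neighbours, by 1.79-fold, without overlap of the groups. The ratio of Hspb1 over Bag3 was −0.20, −0.10 and 0.31 without exosomes and −1.28, −1.48 and −1.51 with them, a 2.68-fold shift, and that of Hspb8 over Bag3 shifted 2.33-fold. For Hspb8 over Bag3 quantile normalization gave 1.74-fold and normexp 1.83-fold, while Hspb1 over Bag3 (2.66 and 2.62) and Hspb2 over Cryab (1.84 and 1.64) moved less. The ratio of Hspb6 over Hspb1 overlapped between the groups, at −0.09 to 0.08 without exosomes and −0.78 to −0.06 with them, and its change of −0.44 became −0.07 under quantile normalization and 0.06 under normexp. These ratios show unequal change and not which of the 2 genes moved. The members were chosen with this comparison known, and most pairs set a lower member over Cryab or Bag3. A ratio without overlap is therefore a description and adds no support.

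**Figure D2:**
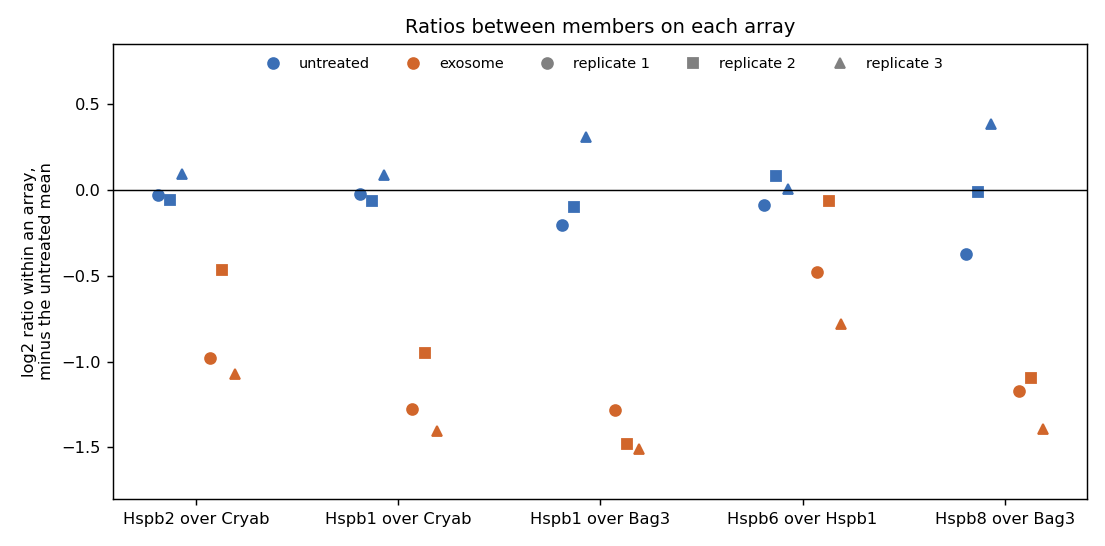
Log2 ratio of 2 members on the same array, minus the mean of the 3 untreated arrays (vertical axis), for 5 pairs (horizontal axis); blue is untreated, orange is exosome and symbols are replicates. For 4 pairs all exosome arrays lie below all untreated arrays, and for Hspb6 over Hspb1 the groups overlap.

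Hspb7, a small heat shock protein of heart muscle that binds filamin C, differed more within the groups than between them. Its intensities were 1092, 916 and 589 in untreated cells and 1011, 1087 and 667 in treated ones. Scaled values were 0.32, 0.23 and −0.35 against 0.01, 0.04 and −0.37, so replicate 3 was the lowest in both groups. The untreated SD of 0.37 was larger than that of 86.7% of tested genes. The difference of −0.18 (SE 0.22) turned positive under median centring (0.24), the only change of sign among the 7 genes in the 15 alternatives. Hspb3, which pairs with Hspb2 in muscle, was not above background on any array, with intensities of 2.80 to 3.63 against 7.95 or more for the dimmest probe that was, and no difference is given.

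**Figure D3:**
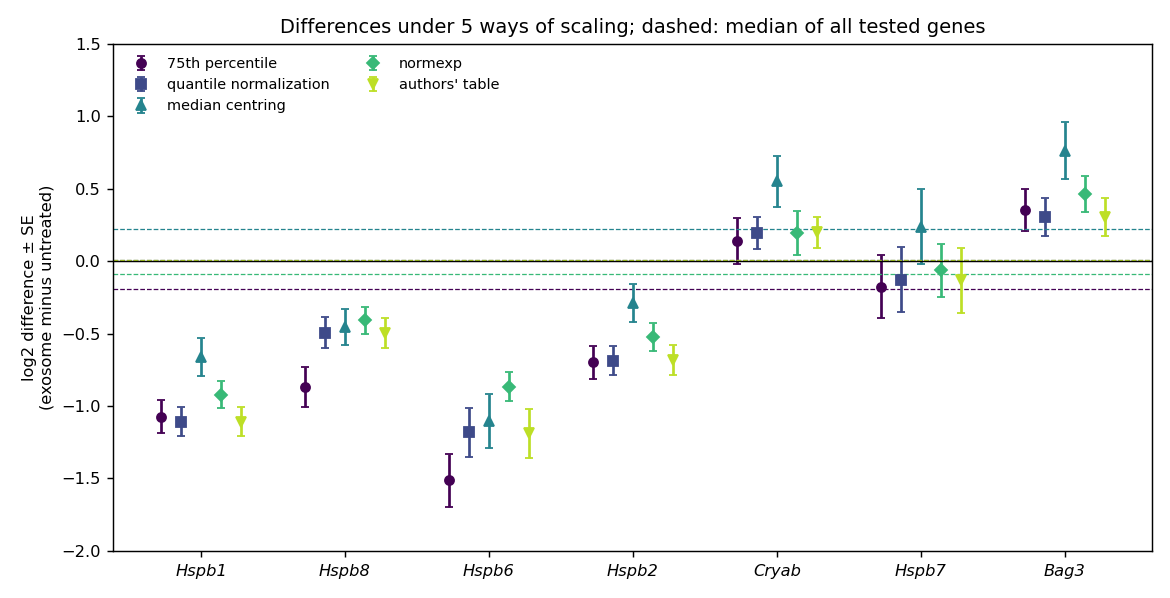
Log2 difference, exosome minus untreated, ± SE (vertical axis; n = 3 per group) of 7 genes under 5 ways of scaling; dashed lines give the median of all tested genes for each. Hspb1, Hspb8, Hspb6 and Hspb2 are below 0 in all 5, Cryab and Bag3 above 0 in all 5, and Hspb7 changes sign.

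Median centring brought Hspb2 to −0.29 and raised Bag3 to 0.76 and Cryab to 0.55. Relative to the median of all tested genes, the 4 lower genes stayed lower under all 5 scalings. These are not 5 separate checks. The 75th percentile and median centring give equal values here by construction, and the authors' table nearly repeats quantile normalization. For Hspb1 the difference from the median of all genes was −0.88 under the 75th percentile and −1.12 under quantile normalization, and for Hspb2 it was −0.51 and −0.70. For Hspb6 it was −1.32 and −1.19, and for Hspb8 −0.68 and −0.50. Bag3 lay 0.54 above the median of all genes and Cryab 0.33 above it, or 0.30 and 0.19 under quantile normalization. The authors' deposited table gave log2 values for Hspb1 of 13.11, 13.04 and 13.18 without exosomes and 12.07, 12.03 and 11.91 with them. Its groups were apart there too.

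**Figure D4:**
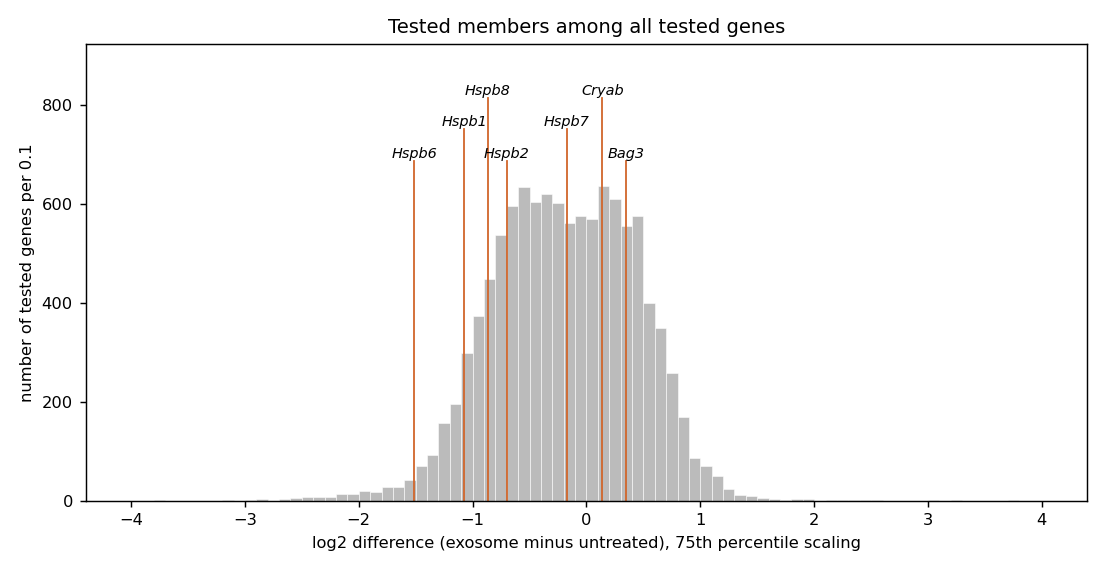
Number of the 10979 tested genes (vertical axis) per 0.1 of log2 difference, exosome minus untreated (horizontal axis, 75th percentile scaling), with 7 genes marked by lines. Hspb6 lies in the lower tail at −1.51, Hspb1, Hspb8 and Hspb2 on the lower side, and Hspb7, Cryab and Bag3 (0.35) in the bulk.

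Over the 6 arrays the 4 lower genes moved together, with Pearson r of 0.96 to 0.99 for each pair. These values are a description: the pairs share arrays, scaling and the step between groups. Cryab, the brightest of the probes, had r of −0.36 to −0.60 with those 4. The 5 genes with the profile most like that of Cryab, among 10972 compared, were Mrto4, Ptgr2, Rplp2, Myl6 and Tmed2 (r of 0.985 to 0.999 over 6 arrays). For Bag3 they were Ccdc8, Usp30, Clptm1l, Osbpl7 and Ssh3 (r of 0.996 to 0.998), and 881 genes had an r above 0.9 with it, against 106 for Cryab.

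Small heat shock genes outside the set were measured beside the members. Of 3 (Cryaa, Hspb9 and Odf1), 2 were tested and both fell, beside 29.2% of all tested genes. Cryaa, alpha A-crystallin of the lens, gave −2.92, −3.64 and −3.54 without exosomes and −4.70, −4.50 and −4.73 with them, and fell by 1.27 (SE 0.21, limma adjusted p = 0.011). Hspb9, a testis-specific member, gave −2.95, −2.96 and −2.61 against −4.48, −4.02 and −4.07 and fell by 1.35 (SE 0.18, limma adjusted p = 0.0098). Neither gene had overlapping arrays, and both still passed with any 1 array left out and under all 5 scalings. Both probes are dim and the size was smaller under normexp, at −0.60 for Cryaa and −0.75 for Hspb9, and under quantile normalization, at −0.86 and −1.003. Odf1, a sperm tail protein of the same family, was above background on 0 arrays.

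All 4 heat shock factor genes measured passed the test, 1 higher and 3 lower, beside 43.8% of all tested genes that passed and 29.2% that were lower. Hsf1, the main stress-activated factor, gave −1.44, −1.41 and −1.34 without exosomes and −1.97, −1.95 and −1.94 with them, and fell by 0.56 (SE 0.10, limma adjusted p = 0.012). Hsf4, known from the lens, fell by 1.11 (SE 0.17), and Hsbp1, which binds and restrains Hsf1, by 0.74 (SE 0.19). Hsf2, a factor of development and spermatogenesis, rose by 0.79 ± 0.14 (limma adjusted p = 0.011), but its second, dimmer probe gave −0.96 ± 0.34 and did not pass, so the 2 probes disagree in sign. Median centring ended the calls of Hsf1 (−0.14) and Hsbp1 (−0.33), and quantile normalization that of Hsf4 (−0.60). Under normexp Hsf1 (−0.37) and Hsf4 (−0.38) still passed at smaller sizes. Without untreated 2, untreated 3 or exosome 1 the values of Hsf1 were −0.56, −0.53 and −0.55 and those of Hsbp1 −0.72, −0.61 and −0.71, none of them past the test. Hsbp1 also missed it without exosome 3 (−0.65).

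Targets of heat shock factor 1 moved both ways. Of 16 genes, 13 had a probe and all 13 were tested: 3 rose, 3 fell and 7 did not pass, with a median of 0.24. Hspa1a, Hspa1b and Dnajb1 had no matched probe. Hspa4l, an HSP110 chaperone, rose by 0.88 ± 0.19 (limma adjusted p = 0.016), and Chordc1, an HSP90 co-chaperone, by 0.71 ± 0.15. The Hspa4l probe was dimmer than that of Hspb8, at −5.81, −5.63 and −5.64 without exosomes, and quantile normalization gave 1.43. Stip1, which passes clients from HSP70 to HSP90, fell by 1.002 (SE 0.19, limma adjusted p = 0.012), and Fkbp4, a co-chaperone of steroid receptors, by 0.76 (SE 0.14). Hspa8, the constitutive HSP70 that works with Bag3, had a difference of −0.13 ± 0.12 that did not pass (limma adjusted p = 0.397), with a positive sign under median centring (0.29) and normexp (0.02). Its other 3 probes did not pass either. Hspa4l and Chordc1 missed the test without untreated 2 (0.91 and 0.66) and without untreated 3 (0.91 and 0.75), and Stip1 and Fkbp4 without untreated 3 (−0.89 and −0.70). Hspa4l also missed it under normexp (0.20), and Stip1 and Fkbp4 under median centring (−0.59 and −0.34), where 8 of the list were higher and 0 lower. Counting every tested probe gave 5 calls higher in place of 3. Both added calls were dimmer probes of Hsp90aa1, named after its values were seen, which rose by 1.18 ± 0.25 and 0.80 ± 0.26. Its brightest probe (0.66 ± 0.28) did not pass. Of the dimmer probes, the former missed the test without untreated 2 (1.23) and untreated 3 (1.21), and the latter with any 1 array left out.

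Of the 14 target genes with a promoter in the table, 10 held GAANNTTC or TTCNNGAA in the 250 bases before the start, against 13.5% of all promoters. The windows of Hspd1 and Hspe1 overlap on opposite strands and hold the same sites, so they are not separate. The genes were listed as targets of heat shock factor 1, so a high share is no support. Serpinh1, the collagen chaperone HSP47, named after its value was seen, holds the same GAAGTTTC as the 4 members and fell by 0.67 (SE 0.16, limma adjusted p = 0.019). It missed the test without untreated 2 (−0.60), untreated 3 (−0.64), exosome 1 (−0.62) or exosome 3 (−0.59), and under median centring (−0.25). Among the 91 tested genes with GAAGTTTC on either strand, 15 rose and 21 fell, beside 14.6% and 29.2% of all tested genes. Their median difference was −0.12, beside −0.18 over the 9021 tested genes with a promoter. The 91 include the 4 members and Serpinh1, so these counts are not separate from their values. Genes with these 8 letters thus lay on both sides, as Hspb1, Hspb6 and Hspb8 on 1 side and Bag3 on the other do.

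Other co-chaperones of the BAG family, which release clients from HSP70, moved both ways: of 5 tested, 1 rose and 3 fell, though under median centring 2 were higher and 0 lower. Bag6, a quality-control factor for membrane proteins, fell by 0.83 (SE 0.17, limma adjusted p = 0.014), Bag1 by 0.60 (SE 0.18) and Bag4 by 0.57 (SE 0.15). Bag5 rose by 0.44 ± 0.13 (limma adjusted p = 0.041). The brighter probe of Bag2 gave 0.22 ± 0.14 and did not pass, while its second probe fell by 0.91 (SE 0.21). Bag6 missed the test without untreated 3 (−0.85) and exosome 1 (−0.79). Bag1, Bag4 and Bag5 missed it without untreated 2 (−0.56, −0.56 and 0.46), untreated 3 (−0.53, −0.53 and 0.49), exosome 1 (−0.54, −0.55 and 0.45) or exosome 3 (−0.50, −0.47 and 0.36). Bag5 did so without untreated 1 too (0.35), and median centring ended the calls of Bag6, Bag1 and Bag4 (−0.42, −0.18 and −0.16). Quantile normalization ended those of Bag1 (−0.63) and Bag4 (−0.34), and the scan time as a random block those of Bag1 (−0.60) and Bag5 (0.44).

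Of 13 tested genes of the autophagy route that Bag3 serves, 1 rose and 5 fell, with a median of −0.42, and under median centring 1 was higher and 1 lower. Flnc encodes filamin C, an actin crosslinker of muscle that Bag3 helps to clear when damaged. It gave −1.69, −1.47 and −1.45 without exosomes and −2.91, −2.17 and −3.07 with them, and fell by 1.18 (SE 0.25, limma adjusted p = 0.015). Flna, which encodes filamin A, fell by 1.18 (SE 0.23). Atg7, an enzyme of autophagosome formation, fell by 1.25 (SE 0.30). Stub1, the ubiquitin ligase CHIP of the same complex, rose by 0.53 ± 0.16 (limma adjusted p = 0.036). Sqstm1, the receptor p62 that carries ubiquitinated clients to autophagosomes, had −0.13 ± 0.11 on its brighter probe, which did not pass and turned positive under median centring (0.28), while its other probe fell by 1.04 (SE 0.19). Without untreated 2 the values of Flna, Flnc, Atg7 and Stub1 were −1.20, −1.15, −1.24 and 0.52, none past the test. Flnc, Atg7 and Stub1 missed it without untreated 3 (−1.13, −1.21 and 0.43) and exosome 1 (−1.08, −1.01 and 0.54). Atg7 did so without exosome 2 (−1.13) and Stub1 without exosome 3 (0.44). Median centring ended the calls of Flna and Atg7 (−0.76 and −0.83), quantile normalization that of Atg7 (−0.84), and the scan time as a random block that of Stub1 (0.53).

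Kinases that phosphorylate small heat shock proteins split as well: of 7 tested, 3 rose and 2 fell. Mapkapk2, the main kinase of Hspb1, fell by 0.72 (SE 0.16, limma adjusted p = 0.016) and Mapkapk5 by 0.61 (SE 0.15). Mapkapk3 rose by 0.56 ± 0.15, Mapk14, the p38 kinase above them, by 0.41 ± 0.13, and Prkaca, the protein kinase A subunit that acts on Hspb6, by 0.85 ± 0.22. Each of these 5 missed the test without untreated 2 (−0.71, −0.59, 0.56, 0.43 and 0.78), untreated 3 (−0.71, −0.54, 0.44, 0.32 and 0.71) or exosome 1 (−0.58, −0.58, 0.58, 0.44 and 0.84). Without exosome 3, Mapkapk5, Mapkapk3, Mapk14 and Prkaca missed it (−0.55, 0.52, 0.37 and 0.74), as did Mapk14 without exosome 2 (0.42). Median centring ended the calls of Mapkapk2 (−0.30) and Mapkapk5 (−0.20), and Mapk14 missed the test under quantile normalization (0.37) and with the scan time as a random block (0.41).

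Of 8 tested cytoskeletal proteins that small heat shock proteins bind, 1 rose and 3 fell by their brightest probe, and 6 calls were lower when every tested probe was counted. Dimmer probes of Actg1, Nes and Lmna, named after their values were seen, fell by 1.04 (SE 0.20), 0.73 (SE 0.17) and 0.46 (SE 0.13), while their brightest probes did not pass. Actb, beta-actin, fell by 1.02 (SE 0.15, limma adjusted p = 0.0099), and passed under all 5 scalings and with any 1 array left out. Des, desmin, fell by 0.62 (SE 0.17) and Vim, vimentin, by 0.47 (SE 0.12), while Krt18, a keratin, rose by 0.60 ± 0.13. Des, Vim and Krt18 missed the test without untreated 2 (−0.72, −0.45 and 0.63), untreated 3 (−0.48, −0.44 and 0.57) and exosome 1 (−0.55, −0.46 and 0.62), and Des and Vim without exosome 3 (−0.58 and −0.43). Median centring ended the calls of Des (−0.20) and Vim (−0.06), and quantile normalization that of Vim (−0.40).

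**Figure D5:**
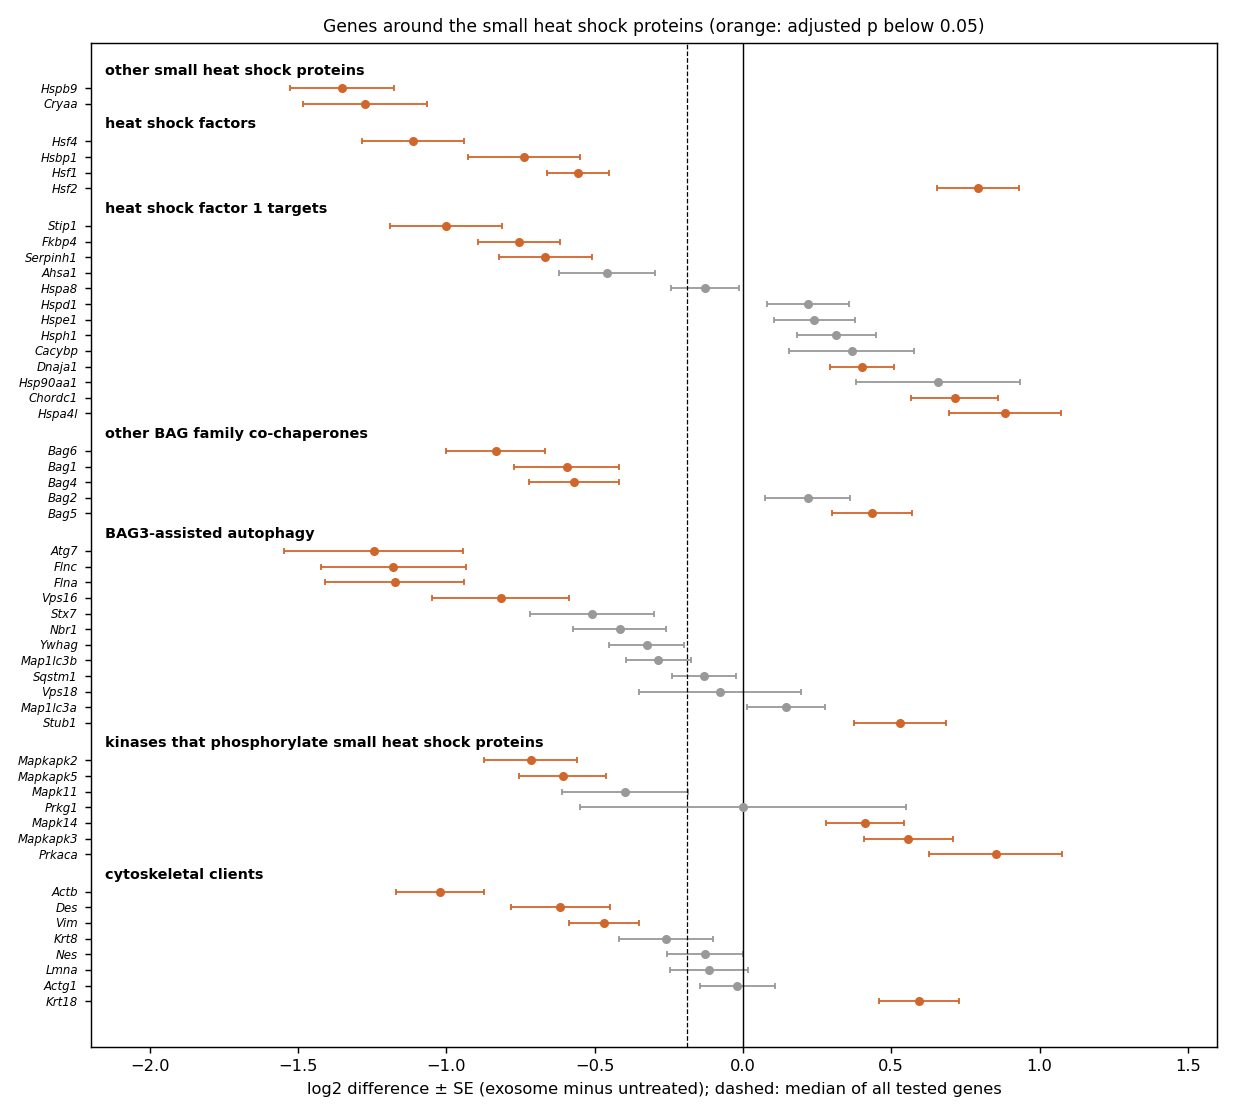
Log2 difference, exosome minus untreated, ± SE (horizontal axis; n = 3 per group) of the tested genes of 7 lists, 1 of them not shown (vertical axis, brightest tested probe of each gene); orange marks an adjusted p below 0.05 and the dashed line the median of all tested genes, −0.19. Both Cryaa and Hspb9 fell, and the other 6 lists hold genes on both sides of 0.

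Markers of cells that a Leydig preparation can hold were measured beside these genes, because several members are abundant in contractile cells. In a mixed culture, fewer cells of a type and less RNA per cell cannot be told apart. Of 13 genes of peritubular myoid and smooth muscle cells, 12 were tested, 1 rose and 4 fell, while under median centring 1 was higher and 0 lower. Beside this count and those of the other markers below, 14.6% of all tested genes were higher and 29.2% lower. Their summed level, in multiples of the 75th percentile, was 76.0 to 80.6 on untreated arrays and 56.3 to 65.0 on exosome arrays. This sum, like Hspb1, Hspb2, Hspb6 and Hspb8, was lower on every exosome array, as were 37.9% of all tested genes. Cryab and Hspb7 overlapped between the groups. No sum was taken under median centring, which raises every difference. The part of this sum in the members' differences was not tested. The sum of Sertoli cell markers was 37.3 to 44.5 against 29.5 to 34.9, with 1 of 8 higher and 2 lower and Amh above background on 0 arrays. That of macrophage markers was 19.7 to 20.8 against 8.05 to 18.8 (0 of 10 higher, 4 lower). The low end rests on Cd68, a lysosomal protein of macrophages, at −3.45 on exosome 3 against 3.15 and 3.35 on exosome 1 and 2, and its difference of −2.34 became −0.10 without exosome 3. Without Cd68 the sums were 9.61 to 10.6 against 7.96 to 8.61. That of endothelial markers was 1.09 to 1.23 against 1.33 to 1.61 (2 of 6 higher, 4 lower, Tek on 0 arrays). Germ cell markers summed to 0.14 to 0.16 against 0.12 to 0.13 (0 of 2 higher, 1 lower), and Prm1, Ddx4 and Sycp3 were on 0 arrays. Their part was not tested either. Leydig cell markers overlapped, at 123 to 127 against 122 to 149, with 0 of 7 higher and 1 lower. Of the defining Leydig genes, Lhcgr and Nr5a1 were above background on 0 arrays.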

How the data were processed

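Each array file held 42877 gene spots, and the authors deposited processed and raw fluorescence intensities per spot, made with Agilent Feature Extraction 11.0.1.1 per the file headers. A second table that the authors deposited holds log2 values whose columns share 1 median of 5.68. It was treated as quantile normalized; how it was made is not given in the sources used here. Between 388 and 572 outlier spots per array were left out. No gene spot was saturated. Spots of a probe were averaged as log2, and the 75th percentile over the gene spots of the array, 753 to 1061, was subtracted. A probe was tested if well above background on at least 3 of 6 arrays (20433 of 30367), in whichever group, and a gene was its brightest tested probe. limma 3.58.1 in R 4.3.3 fitted 1 model with both groups over all tested probes, with Benjamini-Hochberg adjustment. The fit was also run on simulated data, with 1 common spread for all probes and few changed probes. Those settings differ from these data, so the run checks the code and not the calls. Tables used Python 3.11.15, pandas 2.3.3 and numpy 2.4.6, and figures matplotlib 3.10.9. The number of arrays limits the precision.

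Symbols, and promoter sequences before the start site, came from RefSeq tables of GRCr8. The array was designed on rn4, per the file headers, so no probe position is given. 18005 probes had a symbol. The members and lists were chosen with earlier results of these data known. The rule for named genes took, from each list, up to 4 genes past the test of smallest p, or all where 5 or fewer passed, and 6 genes whatever their values: Hsf1, Hspa8, Hspa1a, Dnajb1, Stub1 and Sqstm1. Profile likeness took the 5 genes of highest Pearson r for the brightest member and for Bag3. Alternatives are given at the end. The normexp correction used median spot and background signals. Among the genes the rule takes, 1 is counted in its list but not reported here.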

Additional observations from a re-analysis of the deposited data

How the results depend on the processing

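Counts are given as higher and then lower with exosomes, for all genes, for genes of the 7 lists and for the members, and were 1598 and 3208, 10 and 21, and 0 and 4. The members were chosen on this comparison, so nothing is read from their counts or from how these hold. Median centring gave 3715 and 876, 16 and 5, and 2 and 3. Normexp gave 2431 and 2910 genes and 1 member higher, and no filter 864 and 2584 genes and 4 list genes higher. Quantile normalization gave 2213 and 1766, and the values of the authors' table gave 2216 and 1782. Leaving out 1 array at a time gave 134 to 1725 and 820 to 3294 genes, 1 to 10 and 5 to 24 list genes, and 0 to 1 and 4 to 4 members. The fewest genes came without untreated 2 (134 and 820), untreated 3 (211 and 997) and exosome 1 (377 and 1405). Without exosome 3 there were 767 and 2380, and fewer arrays were then fitted. After the group mean of each probe was taken off, same-numbered samples correlated at −0.09 to −0.02 and differently numbered ones at −0.06 to 0.10. These values show no sign of pairing by number, but with 3 arrays per group they cannot exclude it. With the replicate number as a block there were 768 and 2409 genes, 4 and 16 list genes and 0 and 4 members. Taking the 75th percentile over probes, each counted once, was chosen after seeing the data and gave 2078 and 2651 genes. Of 105 member values under 15 alternatives, 88 moved by less than 1 SD between replicates and 17 by more, with 1 change of sign. The 88 include values that could not move. With no filter, with a filter on all 6 arrays and with the replicate block, a member's difference equals the main one by design. Hspb6 and Hspb8, the dimmest members above background, had their smallest differences under normexp, which changes the background step, the offset and the input signal together.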
